A study of Mus musculus with 15 samples.

Results

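The comparison of IR_BMT with PLX1X forebrain covered 6 of the 15 RNA libraries of the series, 3 from each group, put in their groups by their labels. All mice were wild type and the tissue was frozen forebrain. The IR_BMT libraries are titled IR-BMT, the usual short form for irradiation followed by bone marrow transplantation, and the PLX1X libraries are titled PLX 1x; PLX is the usual start of the names of inhibitors of the CSF1 receptor. The labels spell out neither name and give no compound, dose, interval, age or mark on donor cells, and they do not say whether a library came from 1 animal, so a p-value speaks only of the spread among these libraries, which may be technical. Untreated wild-type forebrain (NT) was used to show on which side of it both groups lay. The group PLX3X_CD30, whose libraries are titled PLX treated, served for a few contrasts with IR_BMT. Its name comes from the library names and is not explained. The group PLX3X_CD0, whose libraries are titled PLX 3x treated, entered the fit but no contrast given here. The title of the series concerns macrophages that derive from monocytes and settle in the brain.

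Microglia are the macrophages of brain tissue, and other macrophages line its vessels and membranes. Both depend on signalling through the CSF1 receptor, so inhibitors of this kinase deplete them, and cells from blood or bone marrow can then take the empty places when conditions allow. Irradiation also strikes dividing cells, which in the adult brain include oligodendrocyte precursors and neural progenitors.

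Total counts were 33304212 to 39549891 in the IR_BMT libraries and 41397164 to 53981576 in the PLX1X libraries. Levels below are CPM, counts divided by a TMM-scaled library total, and a log2 fold change is IR_BMT over PLX1X with the standard error (SE) of the edgeR fit on all 15 libraries unless another contrast is named. A log2 fold change of 1 is a 2-fold rise. Rose and fell are used for an adjusted p under 0.05 in that fit. The first principal component, with 41.2% of the variance of the 6 libraries, separated the groups. IR_BMT replicate 1 stood apart on the second component (19.1%). Ttr, the main transcript of the choroid plexus, was at 448, 8.11 and 8.95 CPM in IR_BMT replicates 1, 2 and 3 and at 3.67, 4.17 and 2.83 CPM in PLX1X, and Doc2g, an olfactory bulb transcript, was at 2.08, 22.2 and 30.8 CPM and 8.46, 3.33 and 3.05 CPM. The 7 choroid plexus genes summed to 22.2 to 505 CPM in IR_BMT, and the 4 cerebellar genes to 1.45 to 2.57 CPM in IR_BMT and 1.11 to 2.08 CPM in PLX1X. Slc17a7, the vesicular transporter of cortical glutamate neurons, lay at 2406, 2289.5 and 2212 CPM in IR_BMT and 1583, 1586 and 1860.4 CPM in PLX1X.

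Of 21780 genes tested, 6197 (28.5%) passed the threshold, 3017 (13.9%) higher and 3180 (14.6%) lower in IR_BMT. A change of at least 2-fold was found for 371 genes (1.70%) upward and 193 (0.886%) downward. The downward count was 124 without IR_BMT replicate 2 and 114 without PLX1X replicate 2. The changes followed base composition across genes. Genes whose average log2 CPM was 1 or more were split into 5 equal groups by the GC content of their transcripts. The median log2 fold change ran from -0.29 in the group with the lowest GC content to 0.28 in the group with the highest, and the share called higher ran from 1.43% to 51.9%. The step between the end groups was 0.16, 0.33 and 0.34 (log2) in the 3 IR_BMT libraries and -0.26, -0.33 and -0.25 in the 3 PLX1X libraries, each measured against the mean of the 6. With a per-library offset for transcript length and GC content, 1165 genes (5.36%) were higher and 2086 (9.59%) lower, and 937 (4.31%) were called higher and 1361 (6.26%) lower in both fits. Of the genes at least 2-fold higher, 263 of 370 with a length and GC value (71.1%) were also called higher with the offset, and of those at least 2-fold lower, 122 of 192 (63.5%) were called lower. All 3 IR_BMT libraries lay above all 3 PLX1X libraries for 22.8% of genes and below them for 21.5%, the background for each such statement below. What made the GC dependence was not tested; values with the offset are given below with many of the genes it moved. Each list count below is to be read against 13.9% of genes higher and 14.6% lower, or 5.36% and 9.59% with the offset.

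**Figure D1:**
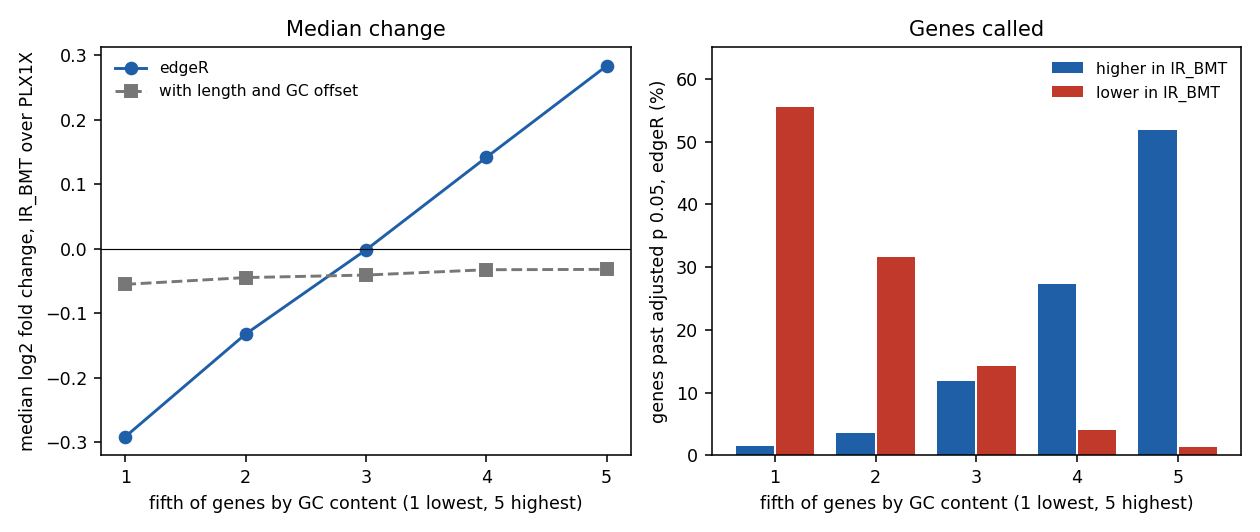
Change between IR_BMT and PLX1X by GC content of the transcript, in 5 equal groups of genes whose average log2 CPM was 1 or more. Left, median log2 fold change in the edgeR fit (circles) and in the fit with the length and GC offset (squares): the first climbs from -0.29 to 0.28 and the second stays between -0.055 and -0.032. Right, percentage of genes with an edgeR adjusted p under 0.05, higher (blue) or lower (red) in IR_BMT.

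Macrophage transcripts were higher in IR_BMT. The list of genes that microglia share with other macrophages had 26 tested members and all 26 rose, against a background of 13.9% of genes, with a median log2 fold change of 2.26 against 0.01 over all genes tested, and all 26 were called with the offset too. Leaving out 1 library at a time kept 24 to 26 of them. Of 11 genes that microglia express and other macrophages express little, 10 rose, as did 6 of 9 tested genes of border-associated macrophages and 6 of 11 tested genes known from bone marrow-derived macrophages that settled in the brain. The shared genes summed to 351 to 398 CPM in IR_BMT, 40.9 to 99.8 CPM in PLX1X and 663 to 824 CPM in NT, so the 3 groups did not overlap. In bulk tissue, fewer cells of a type and less RNA per cell cannot be told apart.

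Promoters of 2 of these genes are shown. Among rises on these lists whose window held the letters searched below, they had the smallest adjusted p. PU.1, the product of Spi1, is a transcription factor needed to make macrophages and is known to act on many of their genes. The letters GAGGAAGT, a core of its binding motif, were searched on both strands of RefSeq promoter windows, 250 bases before to 50 after the start (GRCm38.p6), and overlap neither of the other motifs searched. At least 1 window held them in 5 of 20 shared macrophage genes with a window (C1qc, Ctss, Cyth4, Inpp5d and Vav1), in 2 of 8 border-associated genes (F13a1 and Pf4), in 0 of 8 microglia-restricted genes and in 0 of 13 genes of engrafted macrophages. Counted by window, since a gene can have several, they lay in 5 of 24 windows of the shared list (20.8%), 2 of 10 of the border list, 0 of 10 and 0 of 19 of the other lists, and 3.2% of all 32851 windows. A match is a run of letters, not a measured site. Capitals mark it in the windows of F13a1 (chr13:37049164-37049463, minus strand) and Inpp5d (chr1:87620062-87620361, plus strand):
F13a1: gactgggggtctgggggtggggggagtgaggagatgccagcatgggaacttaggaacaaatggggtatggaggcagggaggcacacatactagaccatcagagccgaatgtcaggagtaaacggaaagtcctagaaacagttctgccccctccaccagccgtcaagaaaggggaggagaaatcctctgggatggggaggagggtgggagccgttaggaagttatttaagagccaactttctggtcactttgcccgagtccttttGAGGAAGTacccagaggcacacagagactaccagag
Inpp5d: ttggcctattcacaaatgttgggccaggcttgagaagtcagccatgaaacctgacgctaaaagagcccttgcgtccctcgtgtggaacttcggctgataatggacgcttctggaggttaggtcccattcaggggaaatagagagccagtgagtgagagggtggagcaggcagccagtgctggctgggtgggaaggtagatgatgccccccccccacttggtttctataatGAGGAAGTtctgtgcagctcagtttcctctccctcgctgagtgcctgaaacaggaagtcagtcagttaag

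Csf1r, the receptor on which these cells depend, was at 48.8, 46.8 and 46.8 CPM in the 3 IR_BMT libraries, 8.91, 13.6 and 4.53 CPM in PLX1X and 146, 170.3 and 179.6 CPM in NT. The groups were fully apart, with IR_BMT between the others, and the log2 fold change over PLX1X was 2.39 ± 0.38 (edgeR adjusted p = 8.83e-04). Spi1 itself was at 4.57, 3.84 and 4.09 CPM in IR_BMT and 0.463, 0.842 and 0.246 CPM in PLX1X (2.99 ± 0.42, adjusted p = 9.15e-05). Irf8, its partner in macrophage gene control, was at 7.03, 6.07 and 6.09 CPM and 1.35, 2.66 and 1.48 CPM (1.81 ± 0.20, adjusted p = 4.19e-06). Both factors were higher in every IR_BMT library than in any PLX1X library. Cx3cr1, the receptor for the neuronal chemokine fractalkine, was at 37.3, 31.8 and 29.6 CPM in IR_BMT and 3.41, 7.38 and 2.54 CPM in PLX1X (2.89 ± 0.35, adjusted p = 1.33e-04). Aif1, which encodes the microglial stain Iba1, was at 3.53, 3.26 and 3.25 CPM and 0.944, 1.66 and 0.271 CPM (1.79 ± 0.34, adjusted p = 9.33e-04).

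The chains of complement C1q, which opens the classical pathway, rose together. C1qb lay at 47.6, 46.7 and 44.3 CPM in IR_BMT and 5.22, 8.82 and 2.76 CPM in PLX1X (3.04 ± 0.43, adjusted p = 4.32e-04). C1qa and C1qc rose by log2 values of 3.05 ± 0.49 and 2.91 ± 0.48. In PLX1X, replicate 3 held the lowest and replicate 2 the highest level of each of the 3 chains, and the same order held for Csf1r, Spi1, Laptm5 and Selplg. Laptm5, a lysosomal membrane protein of leukocytes, was at 50.8, 46.1 and 39.7 CPM in IR_BMT and 4.35, 7.47 and 2.71 CPM in PLX1X (3.23 ± 0.36). Itgam, the CD11b integrin chain, was at 3.15, 2.01 and 2.31 CPM and 0.259, 0.288 and 0.0739 CPM (3.53 ± 0.34), the largest rise on the shared list. Fcgr3, an activating receptor for IgG, was at 12.3, 9.97 and 8.95 CPM and 1.94, 2.15 and 1.35 CPM (2.51 ± 0.17), and Fcer1g, the signalling chain that Fc receptors share, rose by 3.01 ± 0.54. The smallest rise on the list was that of Cd68, a lysosomal glycoprotein of phagocytes (log2 fold change 0.92 ± 0.15). Inpp5d, a lipid phosphatase that dampens immune signalling, was at 15.7, 13.3 and 13.7 CPM in IR_BMT and 5.85, 7.69 and 5.59 CPM in PLX1X (1.16 ± 0.12).

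Among microglia-restricted genes the largest difference was that of Fcrls, an Fc receptor-like molecule: 18.9, 18.1 and 16.8 CPM in IR_BMT, 0.852, 1.26 and 0.837 CPM in PLX1X and 23.1, 28.4 and 29.9 CPM in NT (4.18 ± 0.29, adjusted p = 6.85e-07). P2ry12, the ADP receptor of resting microglia, was at 14.6, 13.6 and 11.8 CPM, 1.74, 2.84 and 1.48 CPM and 40.9, 41.9 and 37.7 CPM in the same order (2.72 ± 0.22, adjusted p = 1.40e-06). For P2ry12 the IR_BMT libraries lay far under NT, and for Fcrls closer to it. Tmem119, a membrane protein that marks microglia, was at 27.0, 23.8 and 22.5 CPM in IR_BMT and 4.89, 6.72 and 3.74 CPM in PLX1X (2.25 ± 0.24). Siglech, a sialic acid-binding lectin, was at 7.73, 7.47 and 6.82 CPM and 1.06, 1.46 and 0.542 CPM (2.83 ± 0.26). P2ry13, another purine receptor, was at 8.64, 6.07 and 7.16 CPM against 0.259, 2.00 and 0.123 CPM (3.20 ± 0.71, adjusted p = 0.00651), its call was lost when the 6 libraries were fitted alone, and without PLX1X replicate 2 the log2 fold change was 5.17. Sall1, the transcription factor of microglial identity, was the member that did not pass, at 12.9, 18.3 and 18.9 CPM in IR_BMT and 14.2, 10.9 and 11.3 CPM in PLX1X (0.47 ± 0.43, adjusted p = 0.482); it was named after its value was seen.

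**Figure D2:**
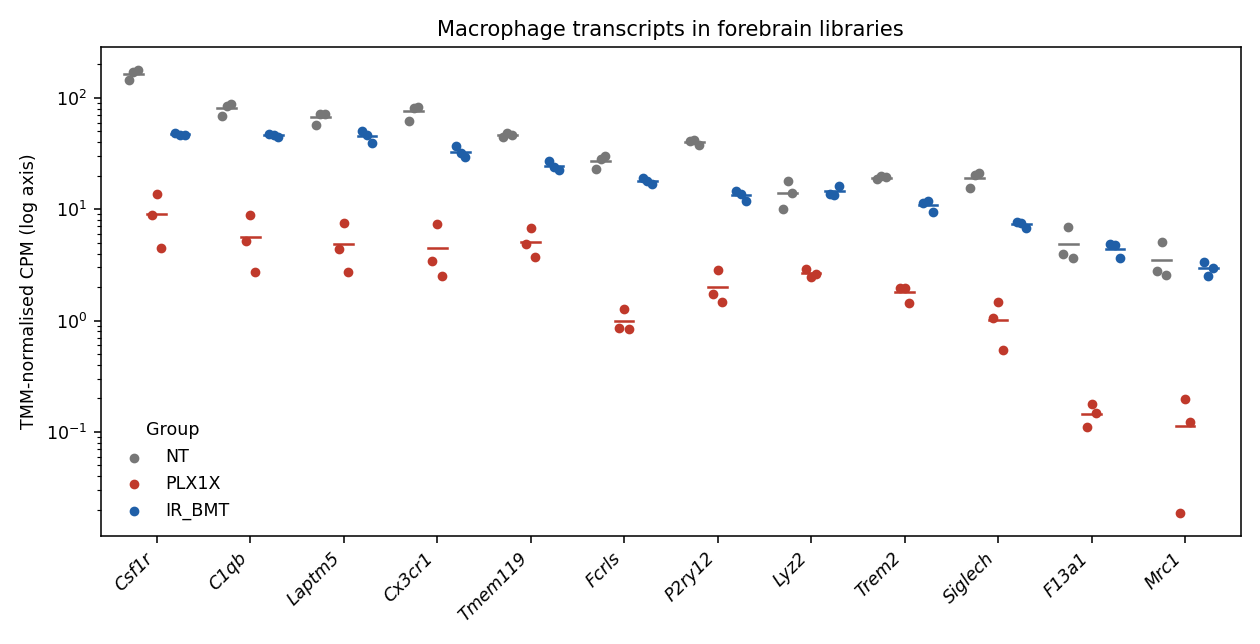
TMM-normalised CPM (log axis) of 12 macrophage genes in each library of NT (grey), PLX1X (red) and IR_BMT (blue), with short lines at the group means. For each of these genes the 3 IR_BMT libraries lie above the 3 PLX1X libraries, and for all but Lyz2, F13a1 and Mrc1 they also lie below the 3 NT libraries.

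Several genes of border-associated macrophages were near 0 in PLX1X. F13a1, the A chain of coagulation factor XIII, was at 4.86, 4.74 and 3.65 CPM in IR_BMT, 0.111, 0.177 and 0.148 CPM in PLX1X and 3.96, 6.98 and 3.63 CPM in NT (4.91 ± 0.33, adjusted p = 5.63e-08). This was the largest rise among called genes, predicted genes aside, with an average log2 CPM of 1 or more and groups that did not overlap. Mrc1, the mannose receptor CD206, was at 3.37, 2.51 and 2.94 CPM in IR_BMT and 0.0185, 0.20 and 0.123 CPM in PLX1X (4.72 ± 0.46, adjusted p = 1.40e-06). Stab1, a scavenger receptor, was at 10.2, 10.4 and 10.1 CPM and 0.870, 1.66 and 1.21 CPM (3.05 ± 0.26). For all 3 genes IR_BMT and NT overlapped and PLX1X lay below both. Pf4, a chemokine of platelets and border macrophages, was at 0.694, 0.501 and 0.840 CPM in IR_BMT and at 0.0741, 0.0443 and 0 CPM in PLX1X, where it rested on a few counts. Cbr2, a carbonyl reductase, was at 1.07, 1.81 and 1.13 CPM and 0.593, 0.111 and 0.0985 CPM (2.25 ± 0.55, adjusted p = 0.00498, and 3.64 without PLX1X replicate 1), and Lyve1, a hyaluronan receptor, at 0.757, 0.334 and 0.420 CPM and 0.204, 0.177 and 0 CPM (adjusted p = 0.0342). Cd163, a haemoglobin scavenger receptor, did not pass, at 2.62, 1.98 and 2.81 CPM and 2.35, 3.15 and 2.76 CPM (-0.16 ± 0.25, adjusted p = 0.697), nor did Siglec1 and Clec10a. With the offset the same number, 6, was called.

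Genes by which engrafted bone marrow-derived macrophages have been told from microglia did not move as one. Ms4a7, a membrane protein of this set, had no count in any PLX1X library and stood at 0.694, 0.306 and 0.472 CPM in IR_BMT and 0.763, 0.495 and 0.461 CPM in NT. Against a floor of 3 counts per library it was at least 7.54-fold higher in IR_BMT than in PLX1X, and the libraries of IR_BMT and NT overlapped. Lyz2, the macrophage lysozyme, whose reads cannot be told from those of its near-identical copy Lyz1, was at 13.7, 13.5 and 16.2 CPM in IR_BMT, 2.93, 2.48 and 2.61 CPM in PLX1X and 10.0, 18.1 and 14.0 CPM in NT (2.43 ± 0.37 over PLX1X, adjusted p = 5.22e-04). Hpgd, a prostaglandin-degrading enzyme, was at 3.06, 3.20 and 3.33 CPM and 1.19, 1.49 and 1.33 CPM (1.26 ± 0.25), and Ms4a6b at 0.946, 0.780 and 0.813 CPM and 0.222, 0.222 and 0.222 CPM (1.92 ± 0.51). Tmem176b was at 27.3, 29.4 and 30.6 CPM and 24.2, 24.1 and 22.0 CPM (0.31 ± 0.09), a call lost with the offset (0.16 ± 0.08, adjusted p = 0.231) and without either replicate 3. Ms4a6c, at 0, 0.279 and 0.367 CPM and 0, 0.0443 and 0.0492 CPM, lost its call with the offset and without any single library other than IR_BMT replicate 1. Ccr2, the chemokine receptor of blood monocytes, was at 0.158, 0.0279 and 0.262 CPM in IR_BMT and 0.0370, 0.111 and 0.0492 CPM in PLX1X and did not pass (adjusted p = 0.464), and neither did Clec12a, Tmem176a, Itga4 and Emilin2. With the offset 4 of the 11 were called higher and 1 lower.

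Both treated groups lay under NT for most shared and microglia-restricted genes, while IR_BMT did so for few border-associated and engrafted macrophage genes. The contrasts with NT share the NT libraries. Of the 26 shared genes, 15 were lower in IR_BMT than in NT (background 15.4% lower), with a median log2 fold change of -0.86, and 26 were lower in PLX1X than in NT (background 8.12%), with a median of -3.32. Of 11 microglia-restricted genes, 8 were lower in IR_BMT than in NT and 10 in PLX1X. Of 9 border-associated genes, 1 was lower in IR_BMT and 6 in PLX1X. Of 11 genes of engrafted macrophages, 2 were lower and 1 higher in IR_BMT than in NT (background 15.1% higher). In PLX1X 6 were lower and 2 higher than in NT (background 9.97% higher). The step from PLX1X to IR_BMT was compared with that from PLX1X to PLX3X_CD30 by testing IR_BMT against PLX3X_CD30 directly. No gene of the shared list passed in edgeR, 1 had an unadjusted p under 0.05 and none passed in DESeq2 (background 7.63% higher and 8.88% lower). Csf1r was at 48.8, 46.8 and 46.8 CPM in IR_BMT and 55.7, 53.8 and 55.7 CPM in PLX3X_CD30 (-0.21 ± 0.34, adjusted p = 0.743), and P2ry12 at 14.6, 13.6 and 11.8 CPM and 13.3, 11.8 and 10.5 CPM (0.17 ± 0.20, adjusted p = 0.633). Among microglia-restricted genes, 2 were higher in IR_BMT: Fcrls, at 9.78, 6.73 and 9.66 CPM in PLX3X_CD30 (1.04 ± 0.23, adjusted p = 0.00852), and Crybb1, a lens crystallin that microglia also make, at 3.63, 2.67 and 3.20 CPM in IR_BMT and 1.25, 0.60 and 1.16 CPM in PLX3X_CD30 (1.65 ± 0.25, adjusted p = 2.95e-04).

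Some other immune genes rose as well. Trem2, the lipid-sensing receptor of microglia, was at 11.4, 11.9 and 9.37 CPM in IR_BMT and 1.96, 1.97 and 1.43 CPM in PLX1X (2.60 ± 0.16, adjusted p = 3.13e-08). It led the disease-associated microglia list, of which 6 of 19 tested members rose, against 13.9% of all genes, and 1 fell, against 14.6%. The 1 that fell was Lpl, lipoprotein lipase, at 17.8, 16.9 and 19.9 CPM and 20.5, 23.5 and 22.4 CPM (-0.28 ± 0.09, adjusted p = 0.0311), a call lost with the offset (-0.09 ± 0.10, adjusted p = 0.597) and without IR_BMT replicate 1 or 2 or PLX1X replicate 2 or 3. With the offset 3 of the 6 rises held, and Apoe (0.49 ± 0.08, offset 0.14 ± 0.06) and Ctsd (0.42 ± 0.08, offset 0.20 ± 0.08) no longer passed. Cst7, a cystatin typical of that state, was at 0.378, 0.167 and 0.289 CPM in IR_BMT and 0.130, 0.288 and 0.0492 CPM in PLX1X, and Clec7a and Spp1 did not pass either. Tgfb1, a growth factor that maintains microglia, was at 3.37, 3.15 and 3.36 CPM and 0.889, 0.909 and 1.40 CPM (1.63 ± 0.23, adjusted p = 3.51e-05). Cd14, the co-receptor for bacterial lipopolysaccharide, was at 1.45, 1.37 and 1.29 CPM and 0.352, 0.621 and 0.0985 CPM (1.91 ± 0.44). Csf3r, the receptor for the neutrophil growth factor G-CSF, was at 2.84, 2.09 and 2.76 CPM and 0.296, 0.488 and 0.295 CPM (2.82 ± 0.27). Of 6 tested cytokine and chemokine genes 2 rose and 1 fell, against 13.9% and 14.6% of all genes, and the same counts were called with the offset. Of 10 genes of Toll-like receptors and co-receptors 3 rose and 1 fell, and 3 rose and 0 fell with the offset. The ligands of the CSF1 receptor did not pass: Csf1 stood at 24.2, 27.1 and 22.5 CPM and 26.7, 23.1 and 28.4 CPM (adjusted p = 0.571), and Il34, the other ligand, at 72.6, 77.1 and 75.6 CPM and 68.6, 63.3 and 72.9 CPM (adjusted p = 0.224).

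Some genes of antigen presentation rose. Of 12 MHC class I and peptide-loading genes 7 rose (median 0.52, background 13.9%). With the offset 5 rose (background 5.36%), 4 of them among the 7. The count was 3 without IR_BMT replicate 2 and 4 without PLX1X replicate 3. H2-T23, a non-classical class I gene, was at 28.9, 26.4 and 25.2 CPM in IR_BMT and 14.4, 15.7 and 14.0 CPM in PLX1X (0.87 ± 0.12, adjusted p = 3.39e-05), and H2-D1 at 90.5, 94.1 and 97.2 CPM and 65.5, 69.2 and 62.4 CPM (0.52 ± 0.09, offset 0.30 ± 0.07). Reads of H2 genes can be shared between near-identical copies, so single members are uncertain. Of 7 tested MHC class II genes 3 rose. H2-Eb1, at 2.49, 2.70 and 3.59 CPM and 1.15, 1.37 and 0.689 CPM (1.45 ± 0.34), held under every alternative, while H2-Ab1 and Cd74 lost their calls with the offset (adjusted p = 0.116 and 0.117) and without several single libraries, and H2-Aa did not pass (adjusted p = 0.0688). Of 27 interferon-stimulated genes 2 rose, under the background of 13.9%: Ifi27 (0.52 ± 0.09) and Oas1a. Yet 24 of the 27 had a positive log2 fold change (median 0.36). For 13 of them all IR_BMT libraries lay above all PLX1X libraries, against 22.8% of all genes. The 27 summed to 202 to 224 CPM in IR_BMT, 159 to 179 CPM in PLX1X and 176 to 342 CPM in NT. The count was 7 in the fit on the 6 libraries and 8 without a filter on low counts. The Oas1a call was lost with the offset, with RLE size factors and without any single library. Genes of blood cells did not pass: of 7 tested lymphocyte genes none was called by edgeR, while 1 was lower at an unadjusted p under 0.05 and 1 was lower in DESeq2, and of 6 neutrophil and monocyte genes and 6 red cell genes none was called by either tool or at an unadjusted p under 0.05. Ighm, the heavy chain of IgM, was at 41.9, 40.9 and 31.0 CPM in IR_BMT and 28.9, 36.2 and 31.4 CPM in PLX1X (adjusted p = 0.311).

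**Figure D3:**
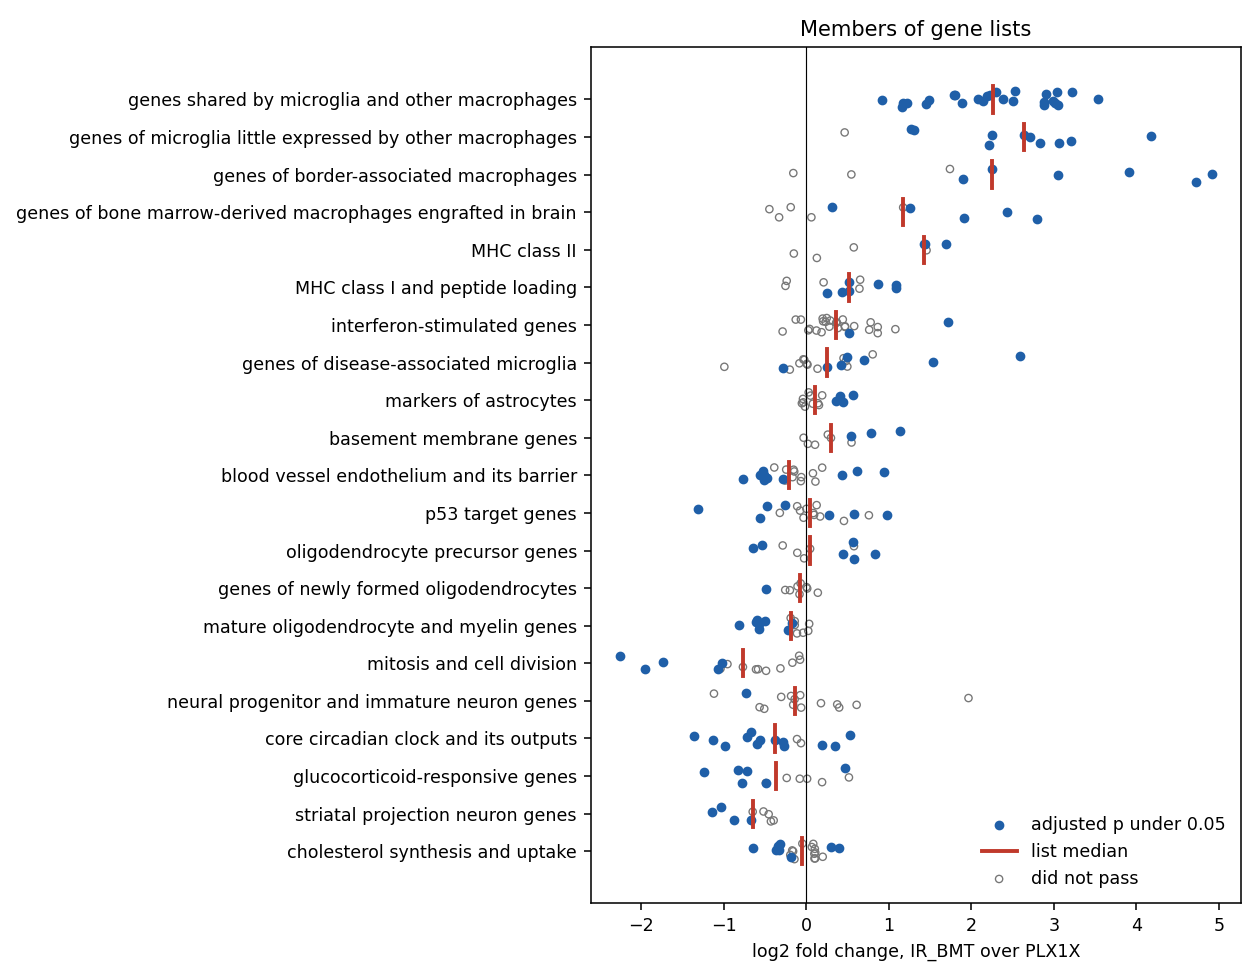
Log2 fold change of IR_BMT over PLX1X for each tested member of 21 gene lists: filled points have an edgeR adjusted p under 0.05, open points do not, and red bars are list medians. Members with no count in a group are left out of the points. Medians of the shared, microglia-restricted, border and engrafted macrophage lists lie right of 0 (2.26, 2.64, 2.25 and 1.18). Those of the mitosis, clock and striatal lists lie left of it (-0.77, -0.38 and -0.65). Changes were positive for 8 of 9 border genes, 8 of 11 engrafted genes and 3 clock genes.

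Genes of cell division were lower in IR_BMT. Of 15 mitosis genes 5 fell and none rose, against a background of 14.6% lower, with a median log2 fold change of -0.77, and 4 fell with the offset. The 15 summed to 10.9 to 13.0 CPM in IR_BMT, 19.1 to 20.1 CPM in PLX1X and 18.5 to 19.7 CPM in NT, so IR_BMT lay under both other groups, which overlapped. Top2a, the topoisomerase that untangles replicated DNA, was at 0.757, 0.557 and 0.682 CPM in IR_BMT, 2.35, 2.22 and 2.09 CPM in PLX1X and 1.57, 1.41 and 2.21 CPM in NT (-1.74 ± 0.27 over PLX1X, adjusted p = 1.14e-04). Mki67, the coat protein of mitotic chromosomes, was at 0.631, 0.446 and 0.262 CPM, 1.44, 2.42 and 1.28 CPM and 3.19, 1.59 and 1.58 CPM in the same order (-1.95 ± 0.37, adjusted p = 5.52e-04). Every IR_BMT library was below every PLX1X and NT library for both genes. Pbk, a mitotic kinase, was at 0.441, 0.0557 and 0.341 CPM in IR_BMT and 1.13, 1.24 and 1.62 CPM in PLX1X (-2.25 ± 0.44), and Ccna2, cyclin A2, at 0.757, 0.724 and 0.813 CPM and 1.31, 2.08 and 1.43 CPM (-1.07 ± 0.27). Ccnb1, cyclin B1, at 0.568, 0.557 and 0.761 CPM and 1.17, 1.13 and 1.55 CPM (-1.02 ± 0.31, adjusted p = 0.0177), lost its call with the offset (adjusted p = 0.0729) and without IR_BMT replicate 1 or 2 or PLX1X replicate 3. Against PLX3X_CD30, without the offset, 4 of the 15 were lower in IR_BMT (background 8.88%), among them Top2a (-1.45 ± 0.28) and Mki67 (-1.28 ± 0.38). These levels were low, under 3 CPM for these 5 genes in all 6 libraries, and 10 of the 15 genes did not pass.

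Promoters of many mitotic genes carry the CHR, a short element read by repressor complexes outside mitosis. Its letters TTTGAA, on either strand, lay in 9 of the 12 windows of mitosis genes (75.0%), against 17.9% of all windows, and these belong to 8 of 11 genes with a RefSeq window (Cdc20, Cdk1, Cenpf, Kif11, Mki67, Prc1, Top2a and Ube2c). Top2a and Mki67 were the only falls on the list whose window held a match. The other genes with a match did not pass, and no match was found for Pbk, Ccna2 and Ccnb1, which fell. Whether the element had a part in the falls was not tested. The end of the Top2a window was found in a GENCODE M21 transcript of the gene, and that of the Mki67 window was not. The windows of Top2a (chr11:99024140-99024439, minus strand) and Mki67 (chr7:135716330-135716629, minus strand) are shown with each match in capitals (in Top2a the second is TTTGAA on the other strand):
Top2a: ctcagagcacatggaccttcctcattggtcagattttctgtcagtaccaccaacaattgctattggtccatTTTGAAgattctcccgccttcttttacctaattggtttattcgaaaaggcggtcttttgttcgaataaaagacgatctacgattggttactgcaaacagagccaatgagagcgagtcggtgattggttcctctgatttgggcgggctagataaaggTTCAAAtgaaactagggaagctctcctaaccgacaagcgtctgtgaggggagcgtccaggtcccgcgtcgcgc
Mki67: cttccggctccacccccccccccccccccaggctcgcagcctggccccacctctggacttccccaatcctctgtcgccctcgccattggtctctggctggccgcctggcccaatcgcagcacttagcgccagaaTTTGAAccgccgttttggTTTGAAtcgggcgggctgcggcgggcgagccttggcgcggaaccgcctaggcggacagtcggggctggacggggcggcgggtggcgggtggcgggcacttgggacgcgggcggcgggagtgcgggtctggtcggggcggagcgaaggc

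Of 13 genes of the MCM helicase and DNA replication 2 fell and 1 rose, shares close to or under those of all genes (14.6% and 13.9%). Rrm2, the ribonucleotide reductase subunit made for DNA synthesis, was at 2.68, 2.17 and 1.39 CPM in IR_BMT and 3.15, 3.30 and 4.19 CPM in PLX1X (-0.77 ± 0.23, adjusted p = 0.0156) and lost its call without either replicate 3. Mcm4 (-0.34 ± 0.09) and Cdt1 (0.57 ± 0.18) lost theirs with the offset. Of 15 progenitor and immature neuron genes only Sox11 passed, a transcription factor of newborn neurons, at 8.29, 10.7 and 8.74 CPM in IR_BMT, 16.1, 14.8 and 15.1 CPM in PLX1X and 16.1, 14.1 and 20.0 CPM in NT (-0.73 ± 0.13, adjusted p = 4.30e-04). Dcx, the tubulin-binding protein of migrating neurons, did not pass, at 15.5, 16.1 and 15.4 CPM and 18.5, 17.4 and 17.5 CPM (-0.18 ± 0.29, adjusted p = 0.701). The sum of the 3 olfactory bulb genes, where such neurons settle, ran from 11.8 to 81.3 CPM among the IR_BMT libraries and from 17.6 to 35.3 CPM in PLX1X, and its part in these values was not tested. Of 18 p53 target genes 3 rose and 4 fell, close to the 13.9% and 14.6% of all genes. With the offset 1 rose and 3 fell, and 1 rose without IR_BMT replicate 2 or PLX1X replicate 2. Bbc3, the pro-apoptotic PUMA, was at 15.0, 15.8 and 16.7 CPM and 9.50, 8.47 and 6.16 CPM (0.97 ± 0.16, offset 0.46 ± 0.14, adjusted p 0.0274 with the offset), Fas, a death receptor, at 0.568, 0.919 and 0.499 CPM and 1.78, 1.80 and 1.35 CPM (-1.31 ± 0.29), and Plk2 at 319, 307 and 299.9 CPM and 380.2, 437 and 471 CPM (-0.48 ± 0.08). Cdkn1a, the cell cycle inhibitor p21, was at 28.6, 31.6 and 30.4 CPM in IR_BMT and 17.2, 15.4 and 21.0 CPM in PLX1X without passing (0.76 ± 0.31, adjusted p = 0.0934).

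Several myelin transcripts were lower in IR_BMT. Of 15 mature oligodendrocyte genes 8 fell and none rose (median -0.19), against 14.6% of all genes lower. With the offset 10 fell, against 9.59%, and 6 fell in both fits, against 6.26%. Mal, a raft protein of myelin, was at 79.0, 83.9 and 86.5 CPM in IR_BMT, 125, 126 and 128 CPM in PLX1X and 146, 113 and 115 CPM in NT (-0.60 ± 0.08 over PLX1X, adjusted p = 2.29e-05), and Mog, a surface glycoprotein of the sheath, at 42.9, 41.5 and 45.7 CPM and 65.2, 66.2 and 61.5 CPM (-0.57 ± 0.08, adjusted p = 5.44e-05). For Mal and Mog all IR_BMT libraries were below all PLX1X and all NT libraries. Ugt8a and Aspa fell (-0.57 ± 0.09 and -0.50 ± 0.09) but not with the offset (adjusted p = 0.0603 and 0.172). Mbp, myelin basic protein, was at 2775, 2907 and 3068 CPM in IR_BMT and 3382, 3307 and 3506 CPM in PLX1X, a small fall (-0.22 ± 0.07, adjusted p = 0.019) that was lost without IR_BMT replicate 1 or 2 or PLX1X replicate 3. Mag and Cnp did not pass (-0.04 ± 0.06 and -0.14 ± 0.06) but were lower with the offset (-0.31 ± 0.07 and -0.33 ± 0.07). Bcas1, a marker of newly formed oligodendrocytes, was at 72.0, 65.9 and 69.6 CPM in IR_BMT, 88.7, 97.8 and 103 CPM in PLX1X and 181, 135 and 136 CPM in NT, a descending order with no overlap (-0.48 ± 0.09 over PLX1X, adjusted p = 6.37e-04). It was the 1 of 9 genes of that stage that passed. Against PLX3X_CD30, without the offset, 8 of the 15 myelin genes were lower in IR_BMT (background 8.88%).

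Oligodendrocyte precursor genes did not move together: of 11, 4 rose and 2 fell, against 13.9% and 14.6% of all genes. With the offset 1 rose and 2 fell, against 5.36% and 9.59%. Matn4, a matrix protein, was at 16.5, 19.5 and 19.1 CPM in IR_BMT and 11.8, 9.49 and 9.58 CPM in PLX1X (0.83 ± 0.15, adjusted p = 4.52e-04), and Vcan, the proteoglycan versican, at 7.13, 8.89 and 7.48 CPM and 11.9, 11.9 and 10.2 CPM (-0.53 ± 0.11, adjusted p = 0.00123). Cspg4, the NG2 proteoglycan, and the lineage factors Olig1 and Olig2 rose (0.59 ± 0.09, 0.44 ± 0.07 and 0.57 ± 0.10), and none of these 3 passed with the offset (0.17 ± 0.08, 0.07 ± 0.07 and 0.28 ± 0.10). Of 14 astrocyte markers 4 rose, against 13.9% of all genes. With the offset 5 rose and 1 fell, against 5.36% and 9.59%, and 3 rose in both fits. Sox9, an astrocyte transcription factor, was at 115, 118 and 118 CPM and 77.7, 79.0 and 79.8 CPM (0.57 ± 0.08, adjusted p = 4.43e-05), and Aldh1l1, a folate enzyme that marks the type, at 118, 131 and 128 CPM and 91.6, 89.2 and 96.3 CPM (0.44 ± 0.08, offset 0.25 ± 0.07). Gfap, the filament of reactive astrocytes, was at 276, 365 and 377 CPM in IR_BMT and 336, 283 and 309 CPM in PLX1X and did not pass (0.13 ± 0.22, adjusted p = 0.715). Of 16 tested reactive astrocyte genes 3 rose, close to the background of 13.9%, 1 rose without IR_BMT replicate 2 or PLX1X replicate 2, and none rose with the offset.

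**Figure D4:**
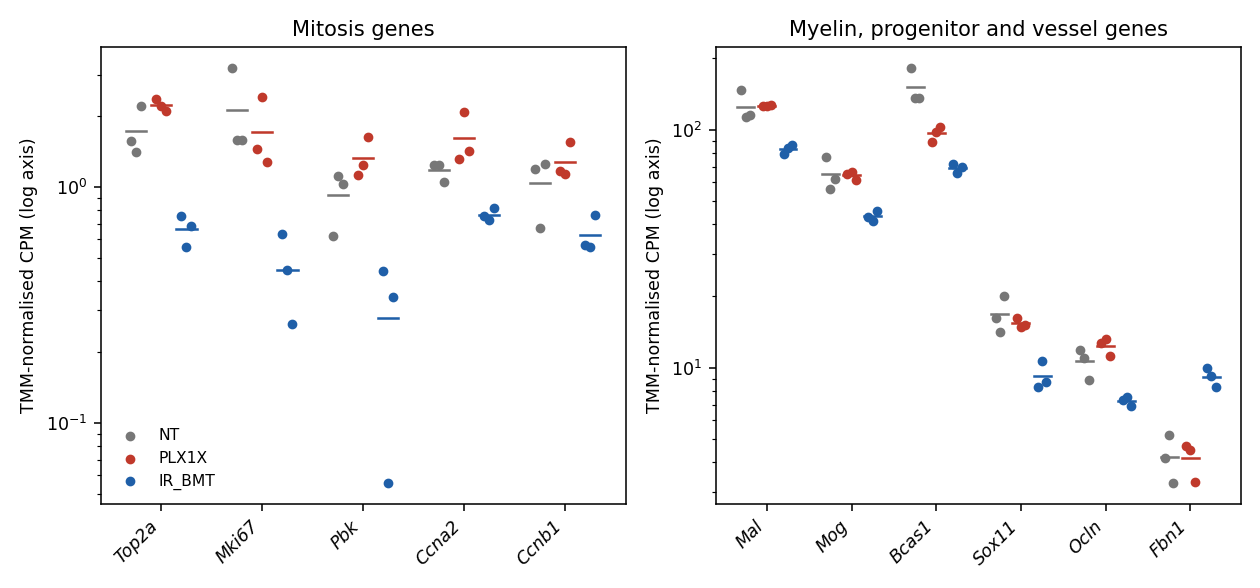
TMM-normalised CPM (log axes) per library in NT (grey), PLX1X (red) and IR_BMT (blue), with lines at group means. Left, the 5 mitosis genes that fell, and right, genes of myelin (Mal, Mog), new oligodendrocytes (Bcas1), newborn neurons (Sox11), tight junctions (Ocln) and microfibrils (Fbn1). All IR_BMT libraries lie below all PLX1X libraries for each gene except Fbn1, where they lie above.

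Circadian clock genes differed between the groups. The clock is a loop in which CLOCK or NPAS2 with BMAL1, the product of Arntl, switches on the Per and Cry genes, whose products then block it. Of 15 core clock and output genes 10 fell in IR_BMT against PLX1X, where 14.6% of all genes did, and 3 rose, where 13.9% did (median -0.38). With the offset 11 fell and 3 rose. The count of rises was 1 without PLX1X replicate 1 or 2. On the repressive arm, Per2 was at 36.9, 42.9 and 38.7 CPM in IR_BMT, 78.2, 80.7 and 101 CPM in PLX1X and 45.4, 45.1 and 46.5 CPM in NT (-1.13 ± 0.13 over PLX1X, adjusted p = 3.15e-05). Ciart, a repressor of the loop, was at 13.5, 17.3 and 15.5 CPM, 34.8, 43.9 and 40.1 CPM and 12.6, 12.4 and 11.0 CPM (-1.36 ± 0.14, adjusted p = 6.78e-06). Nr1d2, the nuclear receptor REV-ERB beta, was at 88.5, 86.5 and 84.4 CPM, 143, 142 and 142 CPM and 80.3, 89.9 and 85.6 CPM (-0.72 ± 0.07, adjusted p = 7.36e-07). For these 3 genes PLX1X lay above both other groups, and the contrast of IR_BMT with NT did not pass (adjusted p = 0.261, 0.0705 and 0.87), while that of PLX1X with NT did (0.92 ± 0.13, 1.73 ± 0.15 and 0.74 ± 0.07). Bhlhe41, the repressor DEC2, was different: 11.7, 10.9 and 9.39 CPM in IR_BMT, 19.5, 23.2 and 20.4 CPM in PLX1X and 27.6, 23.9 and 22.7 CPM in NT (-0.98 ± 0.11 over PLX1X, adjusted p = 6.82e-06), with IR_BMT under NT (-1.21 ± 0.11, adjusted p = 8.52e-07) and PLX1X not past it (-0.23 ± 0.11, adjusted p = 0.159).

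Per1 (-0.59 ± 0.15, offset -0.97 ± 0.15), Per3 (-0.38 ± 0.08), Cry1 (-0.56 ± 0.11) and the output factors Dbp (-0.67 ± 0.15, offset -1.07 ± 0.17) and Tef (-0.28 ± 0.06, offset -0.43 ± 0.06) also fell, and Hlf (-0.27 ± 0.09) fell without holding with the offset. On the activating arm, Npas2 was at 106, 103 and 106 CPM in IR_BMT and 73.7, 67.3 and 77.0 CPM in PLX1X (0.53 ± 0.07, adjusted p = 3.99e-05). Arntl, at 56.1, 49.6 and 55.5 CPM and 38.1, 38.5 and 49.5 CPM (0.36 ± 0.09), lost its call without PLX1X replicate 1 or 2. Clock, at 90.9, 81.3 and 81.4 CPM and 76.1, 71.6 and 74.5 CPM (0.19 ± 0.07, offset 0.42 ± 0.07), lost it without any 1 of 5 of the 6 libraries, IR_BMT replicate 3 being the exception. Nr1d1 and Cry2 did not pass. The labels do not give the hour at which tissue was taken. The E-box CACGTG, which reads the same on both strands and is the letter string that CLOCK and BMAL1 bind, lay in 6 of the 19 windows of clock genes (31.6%), against 7.15% of all windows, and these belong to 5 of 14 genes with a RefSeq window (Bhlhe41, Ciart, Cry1, Per1 and Tef). Ciart and Bhlhe41 had the smallest adjusted p among falls on the clock list whose window held the E-box. The end of the Ciart window was found in a GENCODE M21 transcript of the gene, and that of the Bhlhe41 window was not. The window of Ciart (chr3:95882179-95882478, minus strand) held 3 and that of Bhlhe41 (chr6:145865371-145865670, minus strand) 1, in capitals below:
Ciart: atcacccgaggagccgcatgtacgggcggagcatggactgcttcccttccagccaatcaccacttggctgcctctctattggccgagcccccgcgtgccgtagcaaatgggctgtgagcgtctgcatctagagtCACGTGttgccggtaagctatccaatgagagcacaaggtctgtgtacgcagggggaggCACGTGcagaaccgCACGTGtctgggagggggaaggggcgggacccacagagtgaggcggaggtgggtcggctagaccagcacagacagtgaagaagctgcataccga
Bhlhe41: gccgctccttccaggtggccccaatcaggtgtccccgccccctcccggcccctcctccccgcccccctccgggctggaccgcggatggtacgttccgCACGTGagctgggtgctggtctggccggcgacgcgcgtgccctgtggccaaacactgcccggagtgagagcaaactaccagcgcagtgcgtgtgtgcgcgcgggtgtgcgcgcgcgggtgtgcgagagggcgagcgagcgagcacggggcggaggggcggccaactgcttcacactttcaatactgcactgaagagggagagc

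Genes that respond to glucocorticoid hormone fell in part: 5 of 12 fell, against 14.6% of all genes, and 1 rose (median -0.36), and 6 fell and none rose with the offset. The count of falls was 3 without replicate 1 of either group. Tsc22d3, the leucine zipper protein GILZ, was at 69.2, 69.6 and 68.1 CPM in IR_BMT, 113, 109.7 and 118 CPM in PLX1X and 88.0, 80.7 and 76.5 CPM in NT (-0.72 ± 0.06 over PLX1X, adjusted p = 2.60e-07). Sgk1, a hormone-induced kinase, was at 73.6, 77.8 and 73.4 CPM, 124, 108 and 154 CPM and 69.3, 76.4 and 68.7 CPM (-0.78 ± 0.13, adjusted p = 6.87e-04). Fkbp5, a co-chaperone of the hormone receptor, was at 36.4, 42.0 and 46.5 CPM, 58.2, 62.7 and 54.8 CPM and 40.8, 47.8 and 49.6 CPM (-0.49 ± 0.12, adjusted p = 0.00652). For all 3, PLX1X was above every library of the other groups. Plin4, a lipid droplet protein (-1.23 ± 0.39), and Hif3a (-0.82 ± 0.28) also fell, each losing its call without 4 of the 6 single libraries. Mt1, a metallothionein, rose (0.47 ± 0.14) but not with the offset (0.30 ± 0.12, adjusted p = 0.115).

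**Figure D5:**
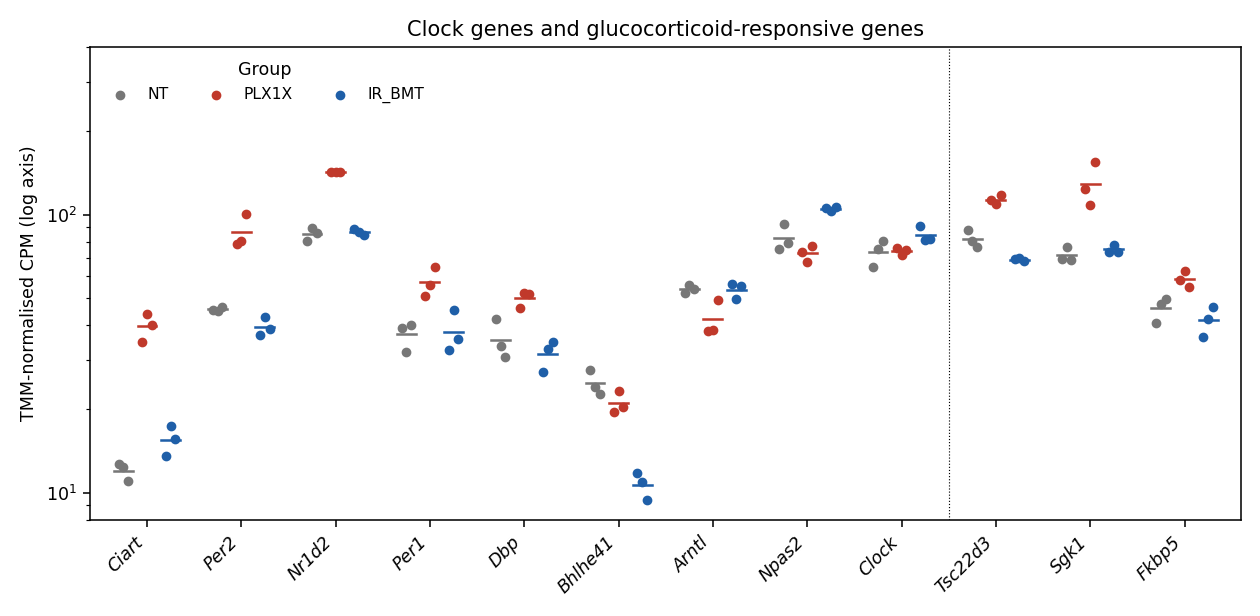
TMM-normalised CPM (log axis) per library of 9 clock genes (left of the dotted line) and 3 glucocorticoid-responsive genes (right) in NT (grey), PLX1X (red) and IR_BMT (blue), with lines at group means. PLX1X libraries lie above both other groups for Ciart, Per2 and Nr1d2, whereas for Bhlhe41 the IR_BMT libraries lie below both.

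Some vessel genes were lower in IR_BMT. Of 22 endothelial and barrier genes 8 fell, against 14.6% of all genes, and 3 rose, close to the background of 13.9%. With the offset 6 fell and 1 rose, against 9.59% and 5.36%. Slco1a4, an organic anion transporter of the barrier, was at 31.7, 32.3 and 27.4 CPM in IR_BMT and 41.0, 47.0 and 46.1 CPM in PLX1X (-0.55 ± 0.07, adjusted p = 1.38e-05, offset -0.28 ± 0.07). Ocln, the tight junction protein occludin, was at 7.35, 7.52 and 6.90 CPM, 12.7, 13.3 and 11.2 CPM and, in NT, 11.9, 11.0 and 8.92 CPM (-0.77 ± 0.11 over PLX1X, adjusted p = 6.26e-05). Flt1, a receptor for VEGF, was at 24.0, 24.7 and 20.8 CPM and 29.5, 30.9 and 37.6 CPM (-0.49 ± 0.09), and Slc2a1, the glucose transporter GLUT1, at 83.1, 95.3 and 84.5 CPM and 101, 109 and 109 CPM (-0.28 ± 0.06, offset -0.46 ± 0.07). Icam1, an adhesion molecule for leukocytes, rose from 1.13, 1.91 and 1.65 CPM to 3.00, 2.70 and 3.28 CPM (0.94 ± 0.23, adjusted p = 0.00409). Cldn5, claudin 5, and Plvap, a protein of fenestrated vessels, rose (0.43 ± 0.07 and 0.62 ± 0.10), but neither passed with the offset (0.05 ± 0.07 and 0.26 ± 0.10). Against PLX3X_CD30, without the offset, 10 of the 22 were lower and 1 higher in IR_BMT (background 8.88% and 7.63%). Pecam1 and Cdh5, which mark all endothelium, did not pass (adjusted p = 0.76 and 0.442). Of 9 basement membrane genes 3 rose. Fbn1, the microfibril protein fibrillin 1, was at 9.93, 9.22 and 8.32 CPM in IR_BMT, 4.69, 4.50 and 3.30 CPM in PLX1X and 4.19, 5.23 and 3.28 CPM in NT (1.13 ± 0.19 over PLX1X, adjusted p = 2.49e-04), higher in IR_BMT than in either other group. Col4a2, a collagen IV chain, was at 50.0, 49.4 and 49.4 CPM and 27.7, 31.1 and 27.8 CPM (0.78 ± 0.07, offset 0.32 ± 0.08), and Col4a1 rose (0.55 ± 0.08) but not with the offset (0.19 ± 0.08). The 10 meningeal fibroblast genes, none called by either tool or at an unadjusted p under 0.05, summed to 111 to 131 CPM in IR_BMT and 97.0 to 113 CPM in PLX1X.

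Some striatal neuron genes were lower in IR_BMT. Of 9 striatal projection neuron genes 4 fell, 5 did not pass and none rose (median -0.65), against 14.6% of all genes lower. The same 4 fell with the offset, against 9.59%. Drd1, the D1 dopamine receptor, was at 68.5, 69.3 and 105 CPM in IR_BMT, 159, 164 and 176 CPM in PLX1X and 135, 149.8 and 146 CPM in NT (-1.04 ± 0.21 over PLX1X, adjusted p = 0.00394). Tac1, which encodes substance P, was at 46.9, 44.5 and 77.5 CPM, 122, 129 and 123 CPM and 120.4, 127 and 127 CPM (-1.15 ± 0.25, adjusted p = 0.00607). IR_BMT replicate 3 was higher than replicates 1 and 2 for both and still below all PLX1X libraries. Ppp1r1b, the signalling protein DARPP-32, and Penk, which encodes enkephalins, fell as well (-0.67 ± 0.17, offset -1.05 ± 0.19, and -0.87 ± 0.23). Without IR_BMT replicate 1 or 2 or PLX1X replicate 3 the count was 2, and without IR_BMT replicate 3 it was 9. Whether the way the tissue was cut had a part in these values was not tested.

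Other genes among the 15 largest falls belong to no list used here and are given one by one. Chat, the enzyme that makes acetylcholine, was at 5.52, 5.93 and 9.53 CPM in IR_BMT, 19.4, 17.9 and 12.2 CPM in PLX1X and 12.7, 13.9 and 13.0 CPM in NT (-1.24 ± 0.22, adjusted p = 6.59e-04). Slc5a7, the choline transporter, was at 4.86, 4.62 and 7.66 CPM, 16.2, 17.2 and 13.1 CPM and 13.7, 11.5 and 12.3 CPM (-1.44 ± 0.21, adjusted p = 1.50e-04). Lhx8, a transcription factor of forebrain cholinergic neurons, was at 1.14, 3.01 and 2.52 CPM, 11.5, 8.69 and 4.90 CPM and 8.10, 5.23 and 6.08 CPM (-1.91 ± 0.41, adjusted p = 0.00384). For all 3 the IR_BMT libraries lay below all PLX1X and NT libraries. Isl1, another such factor, was at 1.73, 3.15 and 5.67 CPM and 10.2, 9.58 and 7.24 CPM (-1.35 ± 0.40) and lost its call with the offset (adjusted p = 0.0705), in the 6-library fit and without 4 of the single libraries. Mc4r, the melanocortin 4 receptor, was at 1.07, 1.17 and 1.42 CPM in IR_BMT, 4.09, 3.75 and 3.50 CPM in PLX1X and 1.81, 1.36 and 2.19 CPM in NT (-1.63 ± 0.24, adjusted p = 5.68e-05), with PLX1X above NT (1.07 ± 0.23, adjusted p = 0.00296). Ano2, a calcium-gated chloride channel, was at 4.23, 5.46 and 8.66 CPM and 20.8, 16.9 and 17.6 CPM (-1.59 ± 0.26), Stk26, a kinase, at 4.51, 4.37 and 5.35 CPM and 11.3, 12.8 and 12.1 CPM (-1.35 ± 0.16), and Tacr3, the receptor for neurokinin B, at 2.08, 1.95 and 1.97 CPM and 5.91, 6.23 and 3.50 CPM (-1.38 ± 0.34). Among these 15, Arhgap36 had the largest fall (0.851, 1.67 and 1.47 CPM against 7.11, 6.52 and 2.27 CPM, -1.99 ± 0.51, adjusted p = 0.0105), with PLX1X replicate 3 close to the IR_BMT range. Gabrq, Nts and Gpr101 fell by the rule (-1.86 ± 0.63, -1.53 ± 0.52 and -1.48 ± 0.44), and all 3 lost their calls with the offset and without several single libraries. Sums of regional lists varied among libraries of a group. The 9 striatal genes summed to 1571, 1576 and 2397 CPM in IR_BMT, and the 9 hypothalamic genes to 23.9, 21.2 and 9.04 CPM in PLX1X. For the falls in this paragraph, too, a part of the way the tissue was cut was not tested.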

How the data were processed

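RNA of frozen forebrain was prepared with a lipid tissue kit and a SMARTer Ultra Low kit, which does not mark strand, and sequenced as read pairs, per the labels' protocols. The authors deposited raw counts per gene and CPM, which equalled each count over its library total. The submitters' processing notes name DRAGEN, DESeq2 and mm10. Which did what, in which version and with which annotation: not given in the sources used here. Of 55774 rows, 287 identical repeats of a gene identifier were removed, and 55227 of 55487 identifiers were found in GENCODE M21, the source of GC content and length. Total counts ran from 19249641 to 54801136 over the 15 libraries. Counts of 1 to 4 were even in 70.6% to 74.7% of cases, so 1 count may be worth less than 1 fragment, and floors cover counting error only. No 2 libraries of a group differed by less than sampling noise.

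The test was edgeR's two-sided quasi-likelihood F-test (version 4.0.16, R 4.3.3) with robust dispersions, after TMM scaling and filterByExpr on the groups. All 15 libraries in 5 groups entered the fit, and p-values were adjusted by Benjamini-Hochberg over 21780 genes with a threshold of 0.05. The biological coefficient of variation was 12.1%. Each SE is the fold change (log2) divided by the square root of F. A rule chose the genes named: 15 rises and 15 falls, the largest among called genes that averaged a log2 CPM of 1 or more and whose groups did not overlap (predicted genes aside), the best 5 called members by adjusted p in each of 44 lists (542 genes), and 15 fixed genes. Not all of the 167 are printed. Members of a list named because they did not pass, or to complete a small count, were chosen after their values were seen. The lists and the comparison were chosen with earlier results of these data known. As alternatives, DESeq2 1.42.0 replaced edgeR, RLE factors replaced TMM, the filter was dropped or raised to a CPM of 1 in 3 libraries, the 6 libraries were fitted alone, a replicate block or a loess offset (span 0.3) on transcript length and GC content was added, and each library was left out. The procedure was tested on simulated counts drawn without any dependence on GC content or length. That test therefore cannot speak to the calls that the offset moved.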

Additional observations from a re-analysis of the deposited data

How the results depend on the processing

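DESeq2 kept the call and direction of all 162 named genes that passed, RLE size factors of 161, no filter on low counts of 159 and the fit on the 6 libraries alone of 156; the stricter filter kept all 156 that it still tested. Leaving out 1 library at a time ended 18 to 27 of the 162 calls and reversed none. The length and GC offset kept 107, ended 50 and reversed 5: Lamp2 (0.0864), Grin1 (-0.029), Gria2 (0.0854), Srebf2 (-0.0366) and Etv1 (0.016). It also turned Gfap (-0.0809) and Dcx (0.069), which had not passed. With the offset 3251 genes were called, 1165 higher and 2086 lower, and of these 231 and 123 by at least 2-fold. The stricter filter, which tests fewer genes, gave 230 and 124 by at least 2-fold. Without single libraries the count at least 2-fold lower ran from 114 to 205, the MHC class I count from 3 to 7, the count of falls among glucocorticoid-responsive genes from 3 to 4 and among striatal genes from 2 to 9, which was 9 without a filter. The cause was not tested. With 3 libraries a side, genes at low CPM limit what could be called.

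Replicate numbers in the titles are shared by the groups, but same-numbered libraries did not deviate together (correlations -0.0857, 0.00641 and -0.014), so no pairing was used. With the replicate block 2968 genes were higher and 3096 lower, and 4 of the 162 named calls were lost.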

Other observations

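Lists of cholesterol synthesis and uptake, neurons, lysosomes and mitochondria had small median log2 fold changes (-0.05, 0.01, 0.16 and -0.21), though single members moved more. Some of the shares below are near those of all genes (13.9% higher and 14.6% lower, 5.36% and 9.59% with the length and GC offset). Of 21 cholesterol genes 6 fell and 2 rose. With the offset 2 fell, 1 of them among the 6, and 3 fell without replicate 2 or 3 of either group. Sqle, the synthesis enzyme squalene epoxidase, was at 101, 88.3 and 88.1 CPM in IR_BMT and 107, 119.8 and 117 CPM in PLX1X (-0.31 ± 0.07, edgeR adjusted p = 0.0019, offset -0.30 ± 0.08). Of 16 general neuronal genes 7 rose and 2 fell. With the offset 4 rose, 3 of them among the 7, and 4 rose without IR_BMT replicate 1 or PLX1X replicate 1 or 2. Camk2a, the kinase of excitatory synapses, was at 2205, 2129 and 2079 CPM and 1498, 1339 and 1526 CPM (0.56 ± 0.09, edgeR adjusted p = 1.03e-04). Gad2, a GABA-making enzyme, was at 161, 177 and 225 CPM and 336, 299 and 259 CPM (-0.67 ± 0.15) and lost its call with the offset (adjusted p = 0.0554). Of 9 cortical neuron genes 2 rose and 2 fell. Foxp2, a transcription factor of deep cortical layers and striatum, was at 36.6, 39.1 and 43.3 CPM and 63.4, 64.1 and 58.3 CPM (-0.64 ± 0.11, edgeR adjusted p = 6.39e-04), and Rasgrf2, of upper layers, at 166, 163 and 143 CPM and 126, 120.0 and 133 CPM (0.32 ± 0.09), a call lost without PLX1X replicate 2.

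Of 13 mitochondrially encoded transcripts 4 fell, and with the offset 3 rose and 2 fell. The count of falls was 7 in DESeq2 and without IR_BMT replicate 1, and 2 without IR_BMT replicate 2 or 3 or PLX1X replicate 2. For mt-Nd1, a complex I subunit, IR_BMT was at 461, 345 and 364 CPM, PLX1X at 573, 652 and 631 CPM and NT at 822, 814 and 787 CPM (-0.67 ± 0.09 over PLX1X, edgeR adjusted p = 5.97e-05, offset -0.39 ± 0.09), in descending order from NT. Of 14 lysosomal genes 5 rose and 2 fell, and 3 rose without IR_BMT replicate 3 or PLX1X replicate 2; with the offset 1 rose, Ctsh, a cathepsin, at 11.1, 8.94 and 8.76 CPM and 7.76, 6.69 and 6.65 CPM (0.45 ± 0.12), whose call was lost without IR_BMT replicate 1. Erdr1, a gene at the end of the sex chromosomes with copies that reads cannot tell apart, was at 9.96, 8.78 and 10.6 CPM in IR_BMT, 1.22, 1.20 and 0.689 CPM in PLX1X and 6.77, 3.57 and 2.91 CPM in NT (3.22 ± 0.33, edgeR adjusted p = 5.57e-06), the one gene among the 15 largest rises for which all IR_BMT libraries lay above all NT libraries.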
